A study of Mus musculus with 4 samples.

Results

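Heat shock protein and chaperone genes were examined in RNA-seq libraries of tibial bone marrow from obese mice with and without treadmill exercise. The set was 10 genes fixed by name, Hspa1a, Hspa1b, Hspa5, Hspa8, Hsph1, Dnajb1, Hsp90aa1, Hsp90ab1, Hspd1 and Hspe1, out of 55401 genes in the quantification tables. The FPKM values of all annotated transcripts carrying a gene's name were summed for each library. FPKM, the number of sequenced fragments per kilobase of transcript and per unit of library size, is a level corrected for transcript length and for the size of the library. All 10 genes passed the minimum of a mean FPKM of 0.1, as did 18596 of all genes.

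The libraries came from male wild-type C57/B6 mice that were 8 weeks old when feeding with a high-fat diet (HFD) began. Mice of the obesity group (Ob) received the HFD only, whereas those of the group with obesity and exercise (Ob + Exe) also ran on a treadmill at moderate intensity for 12 weeks, with 2 libraries per group. Both groups thus shared the HFD, and a lean group was not analysed here. The comparison asks how the marrow of obese mice differs after training.

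Chaperones bind unfolded or partly folded proteins and help them to fold, to assemble or to be degraded. Hsp70 proteins work in cycles of ATP hydrolysis that J-domain proteins start and nucleotide exchange factors such as Hsp110 end, and Hsp90 proteins take over many signaling proteins from Hsp70. Some chaperones are made in all growing cells, while others are switched on by heat shock factor after proteotoxic stress. Blood cell formation in the marrow needs much protein synthesis, and the Hsp70 family is known for its part in red cell maturation.

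Heat shock factor and the unfolded protein response act through short motifs near gene starts, and RefSeq windows around annotated gene starts (build GRCm38.p6) were found for 7 of the 10 genes. Hspa8, Hsp90aa1 and Hsp90ab1 were not matched. How reads of Hspa1a and Hspa1b can be assigned depends on their transcripts, which are compared further below. The first pair of sequences is shown because Hspa1a and Hspa1b are near-identical copies. They are the 250 bases before the starts of Hspa1a (chr17:34972157-34972406, minus strand) and Hspa1b (chr17:34959239-34959488, minus strand), with the pair of heat shock factor half-sites GAANNTTC in capitals:
Hspa1a: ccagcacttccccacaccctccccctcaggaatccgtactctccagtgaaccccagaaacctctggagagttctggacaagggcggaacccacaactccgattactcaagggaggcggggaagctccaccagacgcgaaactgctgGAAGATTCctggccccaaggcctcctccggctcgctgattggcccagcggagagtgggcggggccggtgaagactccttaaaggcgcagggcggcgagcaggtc
Hspa1b: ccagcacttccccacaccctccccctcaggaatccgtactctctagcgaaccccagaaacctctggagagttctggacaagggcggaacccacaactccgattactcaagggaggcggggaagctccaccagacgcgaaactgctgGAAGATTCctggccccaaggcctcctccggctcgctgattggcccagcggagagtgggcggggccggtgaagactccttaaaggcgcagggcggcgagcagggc
The marked pair lies 104 to 97 bases before the start in both genes. Over the whole window of 300 bases, which runs on into the transcript, 296 positions were identical. The differences before the start were C44T, T47C and T249G, counted from 1 at the first base of the window with the Hspa1a base given first.

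Shorter stretches of 30 bases are shown for the other genes the results turn on, Hsph1 (chr5:149636351-149636380, minus strand), Hspe1 (chr1:55088053-55088082, plus strand) and Hspa5 (chr2:34772020-34772049, plus strand). Capitals mark the TTCNNGAA pair in Hsph1, overlapping GAANNTTC and TTCNNGAA pairs in Hspe1, and the endoplasmic reticulum stress element in Hspa5:
Hsph1: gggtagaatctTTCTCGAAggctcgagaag
Hspe1: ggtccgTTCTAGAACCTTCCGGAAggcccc
Hspa5: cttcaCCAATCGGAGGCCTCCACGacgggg
Hspe1 and Hspd1 are transcribed away from each other, so the marked 18 bases stand in the windows of both. Both strands of each window of 300 bases were searched. GAANNTTC was found in 7.86% and TTCNNGAA in 8.52% of all 32851 windows, and the heat shock element triplet, which is built of both overlapping pairs, in 0.603%. Among the 7 genes matched, 5 held GAANNTTC (Hspa1a, Hspa1b, Hspd1, Hspe1 and Hsph1), and Hspd1, Hspe1 and Hsph1 also held TTCNNGAA and the triplet, which in Hsph1 lies past the start. Some of the 7 genes had more than 1 window, 10 in all, so counts of genes and shares of windows are unlike measures. GAANNTTC stood in 6 of the 10 windows, and TTCNNGAA and the triplet each in 4. The endoplasmic reticulum stress element stood in 0.119% of all windows and, of the 7 genes, in Hspa5 alone. TGACGTCA and TATAAA, present in 1.79% and 13.6% of all windows, were in no window of the 7 genes, and CCAAT, present in 37.4%, was in windows of 6 of them. These matches describe the sequences and were not tested for binding.

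The depth of the libraries, expressed as read equivalents (coverage times transcript length over the read length of 150 bases), was 44310505 to 53038186, and 12080 to 12547 genes per library reached an FPKM of 1. Across 12409 genes the log2 values of the 2 Ob + Exe libraries correlated less with each other (r = 0.900) than those of the 2 Ob libraries (r = 0.949), and the 4 correlations between groups, 0.909 to 0.948, were also above 0.900. The labels name mesenchymal stem cells and fibroblast as cell line and cell type, although the tissue is given as bone marrow. Blood cell markers dominated. Summed markers of mature neutrophils reached a scaled FPKM of 22641 to 57358 (S100a8 the highest, Cxcr2 the lowest) and those of erythroid cells 47623 to 75390 (Hbb-bs the highest, Gata1 the lowest), whereas 12 markers of mesenchymal stroma and fibroblasts summed to 121 to 181, with Cxcl12 the highest at 88.3 to 142 and Pdgfra the lowest at 0.264 to 0.380. The libraries were therefore treated as whole marrow. In such bulk RNA, fewer cells of a type and less RNA per cell cannot be told apart.

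Scaled FPKM, used for all levels that follow, is FPKM after median-of-ratios scaling between the libraries. The members spanned a wide range of levels, from Hspa8, whose mean over the libraries stood at the 99.2 percentile of all genes tested, to Hspa1a at the 2.76 percentile. Together they made up 0.220% and 0.194% of all FPKM in the Ob libraries, against 0.237% and 0.210% in the Ob + Exe libraries. A mean FPKM of at least 1 was reached by 8 of the genes, and the 2 below it were Hspa1a and Hspa1b. In the order of levels, the ranges over the 4 libraries did not overlap between Hsp90ab1 and Hsp90aa1, between Hspd1 and Dnajb1, between Dnajb1 and Hsph1 or between Hsph1 and Hspa1b. The ranges of the other neighbours overlapped, although Hspa8 was above Hsp90ab1, Hsp90aa1 above Hspa5 and Hspe1 above Hspd1 within each of the 4 libraries.

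**Figure D1:**
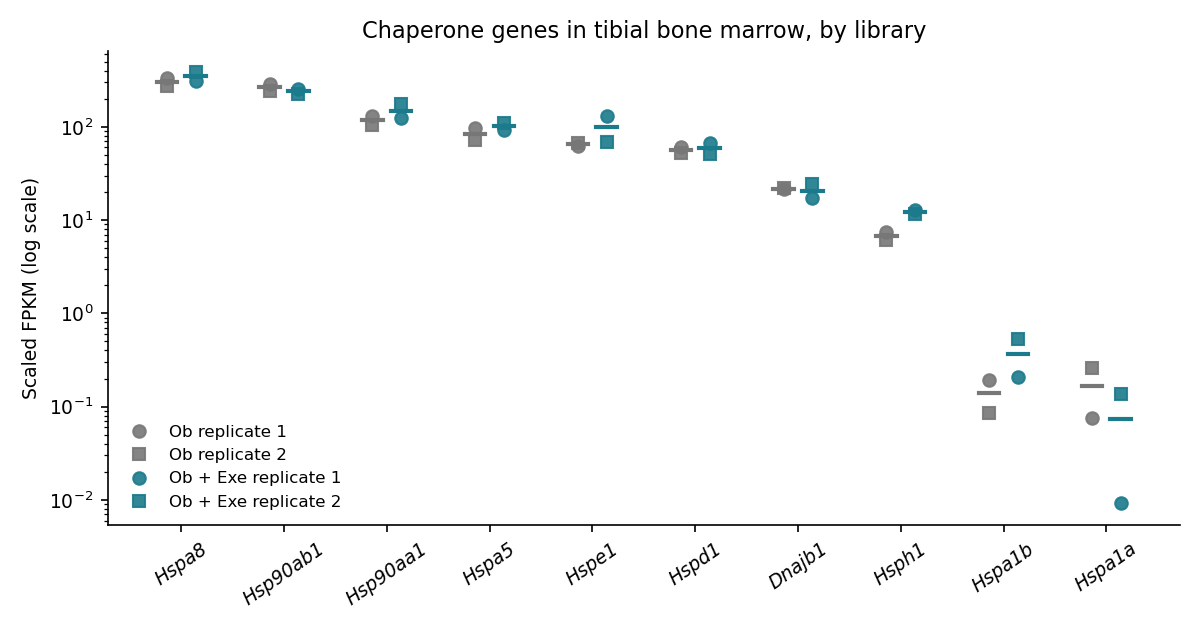
Scaled FPKM of the 10 chaperone genes on a log axis, ordered by mean level, with 1 point per library (grey for Ob, teal for Ob + Exe, circles for replicate 1 and squares for replicate 2) and a bar at each group mean. Hspa8 lies at 274 to 384 and Hspa1a at 0.00921 to 0.260, and the 2 Ob + Exe points of Hsph1 (12.7 and 11.7) stand above both Ob points (7.38 and 6.08).

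Between the groups, 7 of the 10 genes were higher and 3 lower in Ob + Exe than in Ob, and none was called, although Hspd1 turned lower without scaling or with quantile normalization and Hspa1a turned higher with the latter. A gene was called at an unadjusted p under 0.05 together with a log2 fold change beyond 1 in either direction in limma, a linear model fitted to log2(scaled FPKM + 0.1) of all 18596 genes, and 3.74% of all genes were (0.995% higher and 2.75% lower). Fold changes are given on this scale, which understates those of genes near the pseudocount of 0.1. Limma voom on read equivalents also called 0 of the 10. Of the members, 1 had an unadjusted p under 0.05, against 5.05% of all genes tested. After Benjamini-Hochberg adjustment over all genes the members' p ranged from 0.960 to 0.987, and the smallest of any gene was 0.737. No gene was under 0.05 there, but 18 genes were with the replicate number as a block, none of them a member. In 3 members, Hsph1, Hspe1 and Hspa1b, both Ob + Exe libraries were above both Ob libraries, and in none were both below. This share of 30% lay near the 32.6% of all genes tested whose groups did not overlap, of which 14.3% were higher and 18.4% lower. The median log2 fold change of the members was 0.237, beside -0.0198 for all genes tested. It was 0.0578 without Ob replicate 2, 0.119 without Ob + Exe replicate 2 and 0.413 without Ob replicate 1.

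**Figure D2:**
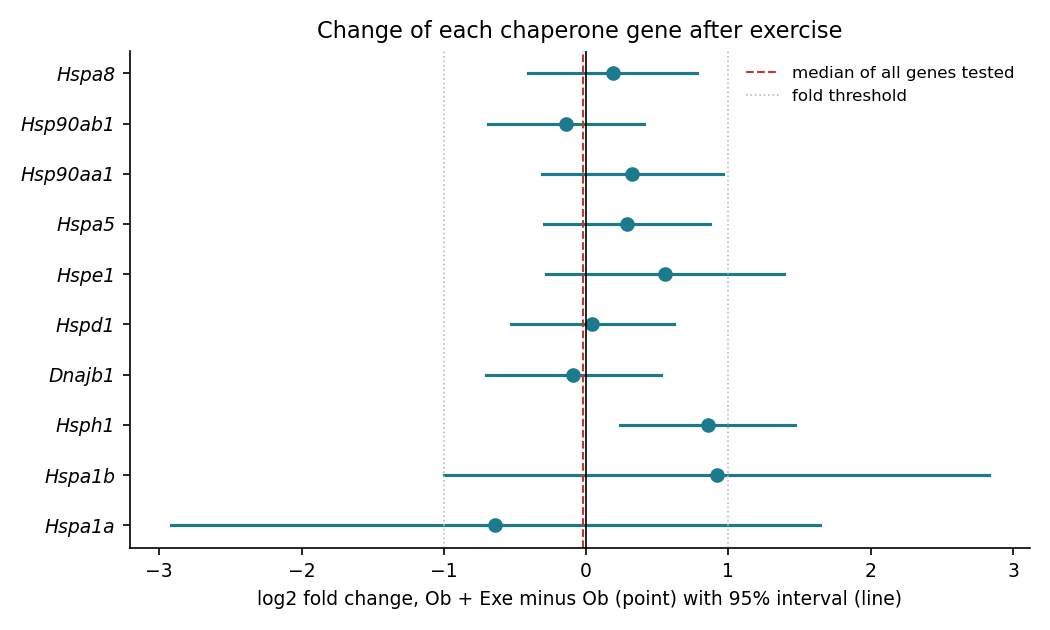
Log2 fold change of each chaperone gene, Ob + Exe minus Ob, from limma (points) with its 95% confidence interval (lines); the dashed line is the median of all genes tested and the dotted lines mark log2 fold changes of 1 in either direction. The interval of Hsph1 (0.237 to 1.47) lies above 0, and those of the other 9 genes include 0.

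Hsph1 (ENSMUSG00000029657.15, chr5:149614287-149636376, minus strand) encodes the cytosolic Hsp110 protein, which releases nucleotide from Hsp70 and helps to dissolve protein aggregates. Its scaled FPKM reached 7.38 and 6.08 in the Ob libraries, against 12.7 and 11.7 in the Ob + Exe libraries. Both exercised libraries were thus above both controls, and the gap between the groups was wider than the gap within either. The group means were 6.73 ± 0.923 and 12.2 ± 0.683 (SD, n = 2), 1.81-fold higher after exercise. The log2 fold change was 0.85 (SE 0.25, 95% confidence interval 0.237 to 1.47), with an unadjusted p of 0.0149 and an adjusted p of 0.960 in limma. The values rested on 1898 and 1546 read equivalents in Ob, against 2767 and 2285 in Ob + Exe. The difference kept its direction when any library was left out, with log2 fold changes of 0.715 to 0.991, but the unadjusted p was 0.0665 without Ob replicate 2 and 0.0521 without Ob + Exe replicate 1. The transcript with 18 exons and 3802 bases carried 96.7% and 95.6% of the gene's FPKM in Ob, against 91.9% and 86.1% in Ob + Exe. For this transcript alone the log2 fold change was 0.742.

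Marker genes of other cell types and immediate early genes also differed between the groups, and their part in the Hsph1 difference was not tested. Of 6 skeletal muscle markers 4 were tested, and their summed level was 9.14 and 5.49 in Ob, against 12.6 and 12.2 in Ob + Exe. Mylpf was the highest of the 6, and Myh1, which did not pass the filter on low values and is not in the sum, the lowest. All 4 muscle markers tested were higher in Ob + Exe, and 1 was called (Acta1, named after its values were seen). Of 6 adipocyte markers 4 were tested, and these summed to 73.2 and 73.6 in Ob, against 120 and 100 in Ob + Exe. Fabp4 was the highest, and Lep was listed at 0 in every library. The sum followed Fabp4, which made up most of it, with group means of 58.1 in Ob and 90.7 in Ob + Exe. Adipoq overlapped between the groups, at 4.04 and 5.91 in Ob, against 4.07 and 8.7 in Ob + Exe. Of the 4 adipocyte markers tested, 3 were higher and Cidec was lower. The 12 immediate early genes, which respond within minutes to stress and tissue handling, summed to 222 and 253 in Ob, against 272 and 308 in Ob + Exe, with 9 higher, 3 lower and 1 called, Fos (Btg2 the most and Fosb the least abundant). The 8 B lineage markers (Cd79b the highest, Rag1 the lowest) went the other way, at 191 and 202 in Ob, against 152 and 116 in Ob + Exe, with 8 of 8 lower and 2 called (Cd79a and Igll1). Fos, Cd79a and Igll1 were named after their values were seen, as were the called genes that follow. The sums of mature neutrophil markers overlapped between the groups, but 7 of 7 were higher with 1 called (Il1b). Of the 12 stroma and fibroblast markers 6 were higher and 6 lower, with 1 called lower (Col1a1).

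Hspa8 (ENSMUSG00000015656.17, chr9:40800984-40810087, plus strand) encodes Hsc70, the constitutive cytosolic Hsp70, and was the most abundant member. It was at 337 and 274 in the Ob libraries, against 311 and 384 in the Ob + Exe libraries. The groups overlapped, since the first Ob library was above the first Ob + Exe library. The log2 fold change was 0.19 (SE 0.24, 95% confidence interval -0.407 to 0.782, unadjusted p = 0.466), so both directions lay within the interval. It was 0.0369 when Ob + Exe replicate 2 was left out and 0.338 when the other exercised library was, the range over all 4 libraries left out in turn. The main transcript, of 9 exons and 2394 bases, carried 80.8% to 91.9% of the gene's FPKM. A shorter transcript of 727 bases varied from 2.83 to 43.4 FPKM before scaling and followed no group, being lowest in Ob + Exe replicate 1 and highest in Ob replicate 2. Of all windows of 150 bases along the main transcript, 56.0% also occurred in transcripts of other genes. Reads from these stretches could have been assigned either way, and the most similar gene with a level above 0, Gm15459, was at 3.97 to 6.57 FPKM.

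Hspa1a (ENSMUSG00000091971.3, chr17:34969190-34972156, minus strand) and Hspa1b (ENSMUSG00000090877.3, chr17:34956436-34959238, minus strand) are the stress-inducible Hsp70 genes, each with a single exon. Both rested on few reads. Hspa1b was at 0.194 and 0.0857 in Ob, against 0.210 and 0.528 in Ob + Exe, from 37, 16, 35 and 81 read equivalents in the same order. Hspa1a was at 0.0747 and 0.260 in Ob, against 0.00921 and 0.137 in Ob + Exe, from 15, 52, 2 and 22 read equivalents. Hspa1b did not overlap between the groups, but its lowest Ob + Exe and highest Ob library differed by less than the replicates of either group. The 95% confidence intervals of the log2 fold changes, -0.998 to 2.83 for Hspa1b and -2.92 to 1.64 for Hspa1a, left either direction possible.

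Because 38.1% of the 150-base windows of the Hspa1a transcript occur in Hspa1b as well, the split of reads between the copies is uncertain and their sum is the firmer value. Hspa1l (0.857 to 1.92 FPKM) and Gm10501 (0.514 to 4.19 FPKM) each share 2.98% of the Hspa1a windows and 1.47% of those of Hspa1b. Reads from these stretches could have been assigned either way, which would alter the sum too. The sum was 0.269 and 0.345 in Ob (0.307 ± 0.0538, SD, n = 2) and 0.219 and 0.666 in Ob + Exe (0.442 ± 0.315). The Ob + Exe libraries were the lowest and the highest of the 4. Expressed against the constitutive Hspa8, the inducible pair amounted to 0.0800% and 0.126% in Ob, against 0.0704% and 0.173% in Ob + Exe (two-sided exact permutation test, p = 1). Hspa1a also shares its locus with Gm20481 on the opposite strand, which was listed at 0 in each library.

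Dnajb1 (ENSMUSG00000005483.10, chr8:83608193-83612653, plus strand) encodes the J-domain protein Hsp40, which delivers substrates to Hsp70 and, like Hspa1a, is a classical target of heat shock factor. Its levels were 21.5 and 22.0 in Ob, against 17.2 and 24.2 in Ob + Exe. The Ob libraries were close to each other and lay between the Ob + Exe libraries. The log2 fold change was -0.09 (SE 0.25, 95% confidence interval -0.701 to 0.523, unadjusted p = 0.733). Per Hspa8, Dnajb1 stood at 6.38% and 8.02% in Ob, against 5.53% and 6.31% in Ob + Exe, whereas Hsph1 stood at 2.19% and 2.22% in Ob, against 4.07% and 3.05% in Ob + Exe. Neither ratio overlapped between the groups, with Dnajb1 lower and Hsph1 higher relative to Hspa8. For Dnajb1 the margin was narrow, at 6.31% against 6.38%. Of all genes tested, 32.6% did not overlap between the groups, and the share among ratios of other genes was not tested. With 2 libraries against 2, the exact permutation test cannot give a two-sided p below 0.333, the value obtained for both.

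Hsp90aa1 and Hsp90ab1 encode the inducible and the constitutive cytosolic Hsp90 proteins, which mature kinases and steroid receptors. Hsp90ab1 (ENSMUSG00000023944.14, chr17:45567775-45573271, minus strand) was at 289 and 240 in Ob, against 256 and 223 in Ob + Exe, and Hsp90aa1 (ENSMUSG00000021270.13, chr12:110690605-110702728, minus strand) was at 131 and 105 in Ob, against 124 and 174 in Ob + Exe. Both genes overlapped between the groups, and the highest Hsp90aa1 and the lowest Hsp90ab1 fell in the same library, Ob + Exe replicate 2. The log2 fold changes were -0.14 (SE 0.22, 95% confidence interval -0.693 to 0.410, unadjusted p = 0.551) for Hsp90ab1 and 0.33 (SE 0.26, 95% confidence interval -0.310 to 0.960, unadjusted p = 0.255) for Hsp90aa1, and the latter was 0.0809 when Ob + Exe replicate 2 was left out and 0.569 when the other exercised library was, the range over all 4 libraries left out in turn. That of Hsp90ab1 ranged from -0.277 without Ob replicate 2 to -0.00577 without Ob replicate 1. The ratio of Hsp90aa1 to Hsp90ab1 within a library was 0.454 and 0.436 in Ob, against 0.484 and 0.781 in Ob + Exe (two-sided exact permutation test, p = 0.333). It was thus higher in both exercised libraries, by little in one and clearly in the other. Of the 150-base windows of the Hsp90aa1 transcript, 36.2% recur in other genes, mostly Gm12346 (1.39 to 2.15 FPKM), while Hsp90ab1 shared none.

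Hspa5 (ENSMUSG00000026864.13, chr2:34771970-34777547, plus strand) encodes BiP, the Hsp70 of the endoplasmic reticulum, which holds secretory proteins during folding and keeps the sensors of the unfolded protein response inactive. It was at 95.9 and 71.6 in Ob (83.7 ± 17.2, SD, n = 2) and 92.4 and 111 in Ob + Exe (102 ± 12.8). The groups overlapped, and the log2 fold change was 0.29 (SE 0.24, 95% confidence interval -0.299 to 0.873, unadjusted p = 0.274). It ranged from 0.0765 without Ob replicate 2 to 0.497 without Ob replicate 1. The main transcript of 2613 bases accounted for 90.6%, 92.1% and 90.1% of the FPKM in Ob replicates 1 and 2 and Ob + Exe replicate 1 but for 77.8% in Ob + Exe replicate 2. There a longer transcript of 3672 bases, whose annotated start lies upstream, was assigned 19.2%, against 2.51% to 8.30% in the other libraries. The main transcript alone differed by a log2 fold change of 0.162. Hspa8 and Hspa5, the cytosolic and the endoplasmic reticulum Hsp70, stood in a ratio of 3.51 and 3.82 in Ob, against 3.37 and 3.47 in Ob + Exe (two-sided exact permutation test, p = 0.333). Both exercised libraries lay below both controls, but only by 3.47 against 3.51. How often ratios of other genes separate the groups was not tested.

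**Figure D3:**
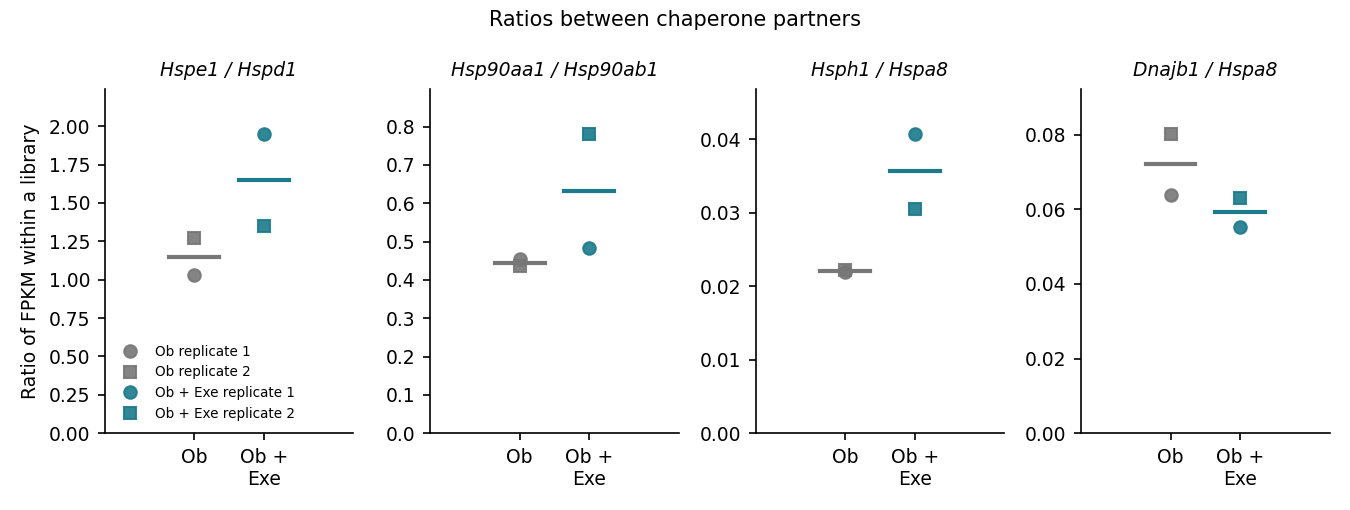
Ratios of FPKM between partner chaperones within each library, with axes that start at 0, 1 point per library (grey for Ob, teal for Ob + Exe) and a bar at each group mean. The Hspe1 to Hspd1 ratio runs from 1.03 and 1.27 in Ob to 1.95 and 1.35 in Ob + Exe, and the Hsph1 to Hspa8 ratio from 0.0219 and 0.0222 to 0.0407 and 0.0305.

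Hspa8, Hsp90aa1 and Hspa5 ranked the libraries in the same order, from Ob replicate 2 through Ob + Exe replicate 1 and Ob replicate 1 to Ob + Exe replicate 2. The summed markers of mature neutrophils had that order too, at 22641, 29654, 39980 and 57358. So did the sum of 3 marrow leukocyte markers, at 586, 622, 750 and 914 (Coro1a the highest, Itgb2 the lowest), although Ptprc and Coro1a alone had other orders. In the neutrophil sum, S100a8 and S100a9, which made up most of it, had the same order. Cxcr2, Mmp8 and Retnlg shared it, whereas Csf3r and Il1b did not. The sum of 7 plasma cell markers had the order of Hspa8 as well, at 224, 343, 404 and 435. It followed its most abundant gene Jchain (141 in Ob replicate 2 to 352 in Ob + Exe replicate 2), while 4 of the 7 genes were lower in Ob + Exe and Tnfrsf17 was the least abundant. The sums of neutrophil precursor markers (Ngp the highest, Ctsg the lowest), erythroid markers and monocyte and macrophage markers (Ly6c2 the highest, Adgre1 the lowest) had other orders. The shared order mixes the groups. Of the other members, none shared it, and the part of the cell mixture in the levels of these 3 genes was not tested.

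**Figure D4:**
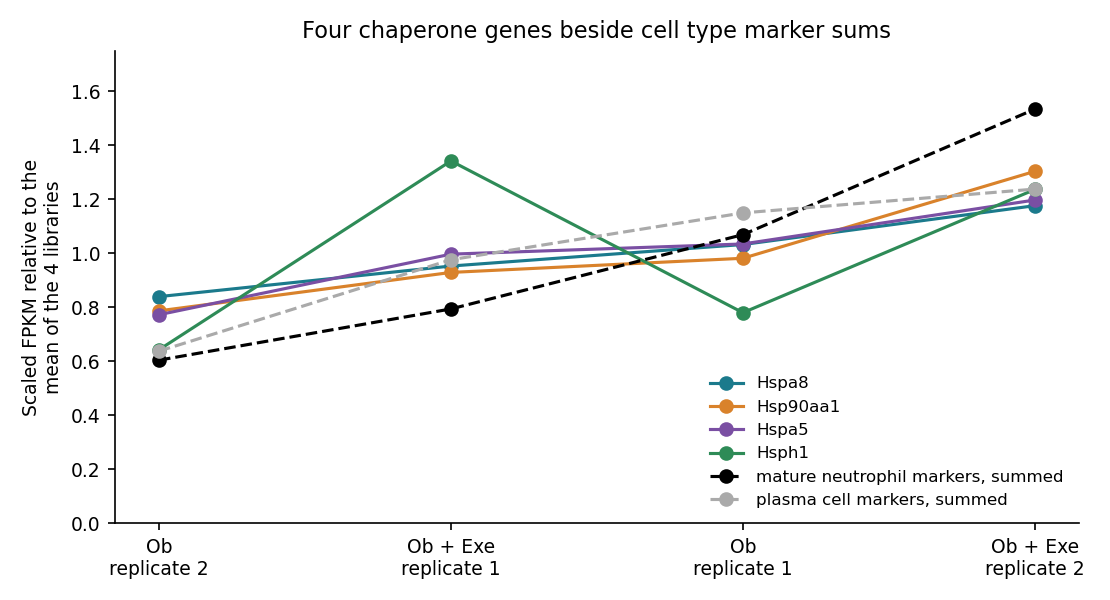
Scaled FPKM of Hspa8, Hsp90aa1, Hspa5 and Hsph1 and of the summed mature neutrophil and plasma cell markers, each divided by its mean over the 4 libraries, with the libraries ordered by the neutrophil sum. Hspa8, Hsp90aa1 and Hspa5 increase from left to right with the marker sums, and Hsph1 is high in the 2 Ob + Exe libraries instead.

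Hspd1 and Hspe1 encode the mitochondrial chaperonin Hsp60 and its lid Hsp10, which together enclose imported proteins for folding, and share a bidirectional promoter. Hspd1 (ENSMUSG00000025980.14, chr1:55077835-55088243, minus strand) was at 60.8 and 52.9 in Ob, against 67.7 and 50.6 in Ob + Exe. Hspe1 (ENSMUSG00000073676.4, chr1:55088132-55091307, plus strand) was at 62.4 and 67.2 in Ob, against 132 and 68.3 in Ob + Exe. Hspe1 was high in Ob + Exe replicate 1, and the second Ob + Exe library lay barely above the Ob libraries and overlapped with them before scaling, at 64.5 FPKM against 64.3 and 69.9. The log2 fold changes were 0.04 (SE 0.23, 95% confidence interval -0.529 to 0.618, unadjusted p = 0.855) for Hspd1 and 0.55 (SE 0.34, 95% confidence interval -0.282 to 1.39, unadjusted p = 0.155) for Hspe1. A single library decided the Hspe1 value, which was 0.0765 without Ob + Exe replicate 1 and 1.03 (unadjusted p = 0.0092) without Ob + Exe replicate 2. The ratio of Hspe1 to Hspd1 was 1.03 and 1.27 in Ob, against 1.95 and 1.35 in Ob + Exe (two-sided exact permutation test, p = 0.333). The annotated genes share 112 bases on opposite strands, but their main transcripts of 2423 and 774 bases do not overlap. That of Hspd1 reaches position 55088024, and that of Hspe1 starts at position 55088132.

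Around the 10 genes, 9 chaperone lists held 135 genes with the members included, of which 128 were tested. Without the members 54 of 118 were higher and 64 lower in Ob + Exe, 1 was called and 4 had an unadjusted p under 0.05. The groups did not overlap in 33.9% of these genes, close to the 32.6% of all genes tested. List medians ran from -0.305 for the small heat shock proteins and other stress-inducible genes to 0.231 for the heat shock factors.

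**Figure D5:**
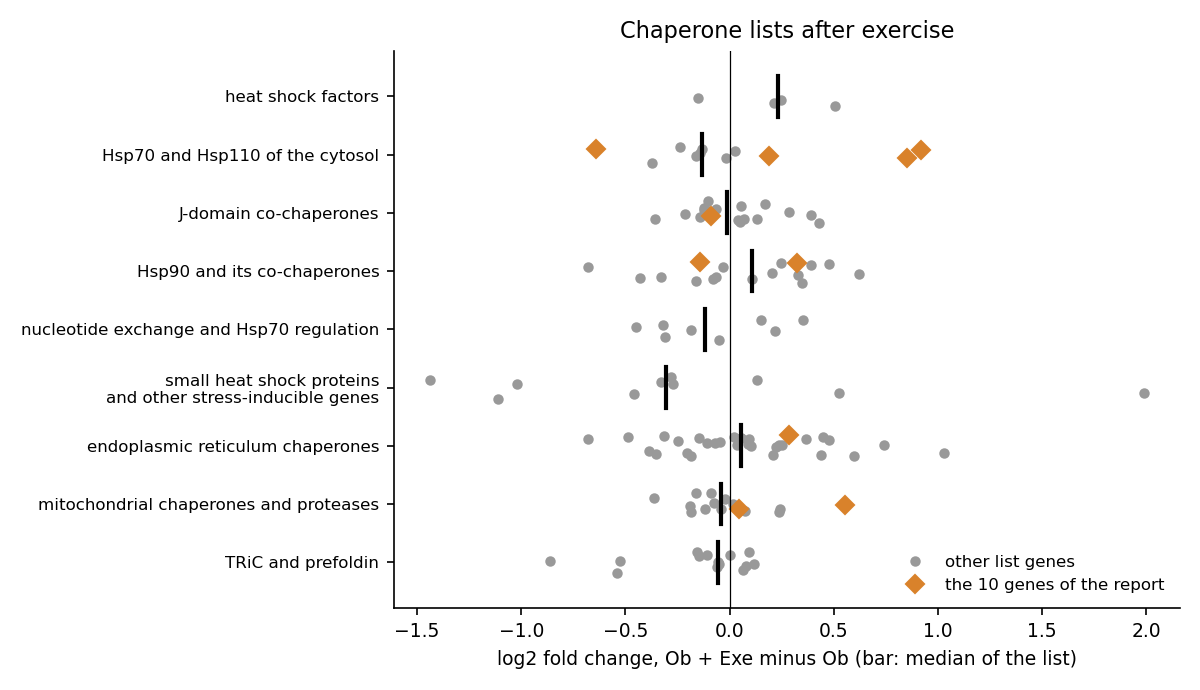
Log2 fold change of each tested chaperone gene, Ob + Exe minus Ob, by list, with the 10 genes of the report as orange diamonds, other genes as grey points and a black bar at the list median. Points lie on both sides of 0 in each list, and the point farthest to the right is Hspb1 at 1.99.

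Hspb1, the small heat shock protein Hsp27 that binds unfolding proteins without ATP and protects actin filaments, was the called gene. It was at 0.659 and 0.149 in Ob, against 1.43 and 1.84 in Ob + Exe, from 41, 9, 79 and 91 read equivalents, with a log2 fold change of 1.99 (95% confidence interval 0.291 to 3.69, unadjusted p = 0.0288). Both exercised libraries were above both controls, but the call rested on each of 3 libraries, with unadjusted p = 0.168 without Ob replicate 2, 0.122 without Ob + Exe replicate 1 and 0.166 without Ob + Exe replicate 2. The log2 fold change without these libraries was 1.19, 2.16 and 1.82. The call was also lost with a pseudocount of 1, where the log2 fold change was 0.93, and with a minimum mean FPKM of 1, with no filter on low values and in limma voom, where it was 1.99, 1.99 and 2.29 with unadjusted p of 0.0588, 0.0655 and 0.0602. In its list, 10 of 14 genes were tested, 3 were higher and 7 lower. Hspb6, a small heat shock protein of muscle, was at 8.05 and 7.55 in Ob, against 2.15 and 5.85 in Ob + Exe (unadjusted p = 0.0664). Serpinh1, the collagen chaperone, was at 2.14 and 2.00 in Ob, against 2.74 and 3.34 in Ob + Exe (unadjusted p = 0.180).

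Of the 4 heat shock factor genes tested, 3 were higher and 1 lower, with none called. Hsf1, the main activator of the heat shock response, was at 9.35 and 9.17 in Ob, against 8.58 and 8.08 in Ob + Exe. Hsf2, a related factor active in development, was at 4.94 and 3.99 in Ob, against 5.37 and 5.21 in Ob + Exe, and Hsbp1, which binds heat shock factor trimers, at 46.4 and 49.4 against 61.4 and 50.2. All 3 kept the groups apart by small margins, as did 32.6% of all genes tested, with unadjusted p of 0.547, 0.422 and 0.346. Hsbp1 was named because its groups did not overlap.

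Among the 11 cytosolic Hsp70 and Hsp110 genes, 4 were higher and 7 lower, so the family was divided. Hspa4, a second Hsp110, was at 29.3 and 26.3 in Ob, against 20.9 and 29.4 in Ob + Exe. Hspa14, a ribosome-associated Hsp70, was at 42.2 and 46.9 in Ob, against 42.1 and 39.0 in Ob + Exe. The J-domain list of 18 genes divided evenly, with 9 higher and 9 lower and a median log2 fold change of -0.0112. Dnaja1, a further Hsp70 partner, was at 26.2 and 18.5 in Ob, against 23.5 and 35.5 in Ob + Exe. Dnajc13, which acts in endosomes, was at 7.73 and 5.54 in Ob, against 8.95 and 8.75 in Ob + Exe, and Dnajc9, a histone chaperone, at 53.8 and 48.5 against 33.7 and 47.3. Both were named because their groups did not overlap, and they went in opposite directions. Such genes made up 16.7% of this list, against 32.6% of all genes tested.

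Of the 17 genes of Hsp90 and its co-chaperones, 9 were higher and 8 lower, and the 2 with an unadjusted p under 0.05 went in opposite directions. Stip1, the adaptor Hop that hands substrates from Hsp70 to Hsp90, was at 29.8 and 25.9 in Ob, against 16.0 and 18.7 in Ob + Exe, which is -0.68 as log2 fold change (unadjusted p = 0.0225). Chordc1, the Hsp90 partner Morgana, was at 11.7 and 13.1 in Ob, against 21.1 and 17.3 in Ob + Exe, which is 0.62 as log2 fold change (unadjusted p = 0.0381). The adjusted p of Stip1 and of Chordc1 was 0.960. In limma without the intensity trend their unadjusted p was 0.0748 and 0.0964, and without scaling 0.0116 and 0.0719. Ahsa1, the activator of the Hsp90 ATPase, overlapped at 31.4 and 24.8 against 30.4 and 23.3. Of the 8 genes that regulate nucleotide exchange on Hsp70, 3 were higher and 5 lower. Bag5, a nucleotide exchange factor, was at 6.29 and 6.32 in Ob, against 3.90 and 5.39 in Ob + Exe. St13, which stabilizes the ADP form of Hsp70, was at 17.2 and 17.0 in Ob, against 19.7 and 24.3 in Ob + Exe. Bag3, a stress-inducible factor that sends substrates to autophagy, was at 3.32 and 4.0 in Ob, against 4.17 and 3.93 in Ob + Exe.

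In the endoplasmic reticulum list, 31 of 33 genes were tested, 19 were higher and 12 lower, and none was called or had an unadjusted p under 0.05. Hsp90b1, the Hsp90 of that compartment, was at 108 and 89.8 in Ob, against 94.2 and 109 in Ob + Exe. Dnajb11, a J-domain partner of BiP, was at 31.8 and 31.2 against 34.5 and 27.1, and Xbp1, a transcription factor of the unfolded protein response, at 67.2 and 59.8 against 63.9 and 64.6. These 3 overlapped between the groups. Sdf2l1, another BiP co-factor, was at 8.21 and 4.74 in Ob, against 9.96 and 11.1 in Ob + Exe (unadjusted p = 0.0700), and Fkbp11, a prolyl isomerase of secretory cells, was at 3.41 and 1.60 in Ob, against 4.32 and 5.49 in Ob + Exe (unadjusted p = 0.0619). Both were lowest in Ob replicate 2, as was Hspa5.

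Of the 15 mitochondrial genes, 6 were higher and 9 lower. Hspa9, the mitochondrial Hsp70, was at 43.1 and 39.8 in Ob, against 36.6 and 36.2 in Ob + Exe, and its J-domain partner Dnaja3 at 10.5 and 11.2 in Ob, against 8.62 and 8.19 in Ob + Exe. Both were lower in each exercised library, with unadjusted p of 0.375 and 0.170, whereas Hspe1 of the same list was higher. Dnaja3 was named because its groups did not overlap, which held for 20.0% of this list and 32.6% of all genes tested. Trap1, the mitochondrial Hsp90, was at 18.3 and 16.5 against 21.3 and 10.9, and Grpel1, the nucleotide exchange factor, at 4.78 and 3.64 against 3.98 and 4.87, so both overlapped. Of the 14 genes of TRiC, the cytosolic chaperonin for actin and tubulin, and of prefoldin, which delivers them, 5 were higher and 9 lower. The TRiC subunits Tcp1 (97.8 and 81.5 against 80.5 and 91.7) and Cct2 (75.2 and 66.0 against 64.4 and 62.3) had unadjusted p of 0.801 and 0.462. The prefoldin subunit Pfdn5 was at 72.4 and 79.7 in Ob, against 50.5 and 54.8 in Ob + Exe, which is -0.53 as log2 fold change (unadjusted p = 0.0363, adjusted p = 0.960), and Pfdn2 at 7.0 and 9.60 against 5.37 and 5.86 (unadjusted p = 0.109). For Pfdn5 the unadjusted p was 0.0801 in limma voom and 0.121 in limma without the intensity trend.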

How the data were processed

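The authors trimmed reads with fastp, removed rRNA reads, aligned to GRCm38 with HISAT2 and quantified annotated transcripts with StringTie. The deposited tables give FPKM and the mean coverage (a signal per base) of 142604 transcripts. The authors tested read counts with DESeq2. Here FPKM was summed per gene and scaled with median-of-ratios factors (0.945 to 1.04). Genes averaging 0.1 FPKM or more entered a limma fit (version 3.58.1, R 4.3.3, pseudocount 0.1, intensity trend, 2 residual and 3.79 prior degrees of freedom), with Benjamini-Hochberg adjustment over all genes. Python 3.11.15, pandas 2.3.3, scipy 1.17.1 and matplotlib 3.10.9 were used for the rest. The limma step was tested on simulated data. Shared windows of 150 bases were counted exactly in GENCODE vM21 transcripts, and promoter sequences are from RefSeq.

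The members, gene lists and tests were chosen with earlier results of these data known. Besides the members, the genes named were 18 fixed chaperone genes, every list gene called, per list the 2 with the largest change among those with a mean FPKM of at least 1 whose groups did not overlap, and the highest and lowest gene of each marker list mentioned. The alternatives changed the pseudocount, the filter on low values, the scaling (none, or quantile normalization), the model (limma voom on read equivalents, limma without a trend, a block for the replicate number), the transcripts summed and the libraries included. The labels do not say that the libraries came from separate mice, so p-values refer to differences between libraries and not to a known spread between mice. The variance behind each limma p combines the spread of the gene's own libraries with a trend over all genes. The aligned depth was 8702.2 to 9951.8 Mb per library. The PCR, Western blotting, micro-CT and cell culture experiments were not analysed here.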

Additional observations from a re-analysis of the deposited data

How the results depend on the processing

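The 2 libraries per group limit the precision of every value, and for low genes such as Hspa1a, Hspa1b and Hspb1, with under 100 read equivalents in each library, the depth does as well. The median log2 fold change of the 10 chaperone genes stayed above 0 under each alternative run (0.0578 to 0.413). The genes called numbered 696 in all, but 222 with a pseudocount of 1, 270 with a mean FPKM of at least 1, 455 in limma voom and 1059 without the intensity trend, and 745 to 1919 when a library was left out (1260 without Ob + Exe replicate 1 and 1919 without Ob + Exe replicate 2). The members called were 0, and 0 to 1 when a library was left out (Hspe1 without Ob + Exe replicate 2). The chaperone list genes called were 1, but 0 with a pseudocount of 1, with a mean FPKM of at least 1 or in voom, 2 without scaling, and 0 to 4 when a library was left out (0 without Ob replicate 2, 2 without either replicate 1 and 4 without Ob + Exe replicate 2). The causes of these shifts were not tested.

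In a fit blocked on replicate number, 744 genes, 0 members and 2 chaperone list genes were called, and 18 genes had an adjusted p under 0.05, against 0 in each fit without a block. The labels give no shared litter or day behind the numbers, and the differences of same-numbered libraries correlated at -0.106 over all genes tested and -0.235 over genes averaging 1 FPKM or more. Crossed numbers, a pairing chosen after seeing the data, gave 802 genes, 0 members and 3 chaperone list genes called, with 11 genes at an adjusted p under 0.05.

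Some log2 fold changes turned sign, all of genes not called. Without scaling they were -0.0424 for Hspd1, -0.0499 for Hsp90b1, -0.0672 for Xbp1 and -0.0103 for Grpel1, and with quantile normalization -0.012 for Hspd1, -0.011 for Hsp90b1, -0.0405 for Xbp1 and 0.237 for Hspa1a. Leaving out each library in turn, the values crossed 0 for Hspd1 (-0.166 to 0.255), Dnajb1 (-0.334 to 0.156), Hspa4 (-0.405 to 0.0842), Hsp90b1 (-0.0975 to 0.172), Dnajb11 (-0.217 to 0.13), Xbp1 (-0.0638 to 0.103), Grpel1 (-0.117 to 0.267), Trap1 (-0.67 to 0.291), Ahsa1 (-0.258 to 0.125) and Tcp1 (-0.187 to 0.076).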
